A study of Mus musculus with 2 samples.

Results

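The 10 genes described here mark the distal part of the nephron: the transcription factor genes Irx1, Irx2, Irx3, Pou3f3, Sim1 and Tfap2b, and the product genes Umod, Slc12a1, Slc12a3 and Kcnj1. They were fixed by name, and every peak of single-nucleus ATAC-seq (snATAC-seq) that overlapped a gene body or its 2 kb upstream was taken. That gave 38 of the 159560 peaks of the Enl-WT library and 31 of the 130027 peaks of the Enl-T1 library. Of these, 28 regions were called in both libraries, out of 110706 such shared regions in all. All 10 genes had at least 1 shared region, and all 10 were among the 16825 genes with enough counts to be compared over all nuclei.

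The nephron forms from progenitor cells of the cap mesenchyme, and its distal end becomes the thick ascending limb of the loop of Henle and the distal convoluted tubule. Irx1, Irx2 and Irx3 encode Iroquois homeodomain proteins, which pattern the middle and distal segments of the forming tubule. Pou3f3 (Brn1) encodes a POU domain factor needed for the loop of Henle, Sim1 a bHLH-PAS factor first known from the hypothalamus, and Tfap2b an AP-2 factor of the distal convoluted tubule. Umod encodes uromodulin, which the thick ascending limb secretes into the urine. Slc12a1 encodes the furosemide-sensitive Na-K-2Cl cotransporter NKCC2 of that limb, Kcnj1 the potassium channel ROMK that recycles potassium beside it, and Slc12a3 the thiazide-sensitive Na-Cl cotransporter of the distal convoluted tubule. In ATAC-seq a transposase cuts open chromatin, so the counts measure accessibility of the DNA and not transcription.

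The kidneys came from mouse embryos at E15.5, with 1 library per group. Enl-WT was Enl +/+ Wt1 GFPCre/+, and Enl-T1 was Enl flox-T1/+ Wt1 GFPCre/+, in which Cre turns 1 allele of Enl (Mllt1, a reader of acetylated histones) into the T1 form, a short in-frame insertion found in Wilms tumour. Both groups thus carried the knock-in of an EGFP-Cre fusion that replaces 1 Wt1 allele and is expressed in the nephron and stromal lineages. The sex of the embryos was not determined, and the sources used here do not say how many embryos entered a library. With 1 library per group, no difference between Enl-WT and Enl-T1 has a replicate check, so no test between them was made, and each interval below is an exact 95% interval that covers counting error alone.

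After a filter of 2000 to 100000 counts per barcode, 9472 Enl-WT nuclei with a median of 14789.5 counts and 12635 Enl-T1 nuclei with a median of 8753 counts were kept, so Enl-T1 was the shallower library and had fewer peaks called. Between the libraries, 149 barcode sequences were shared, 8 of them in the distal class of Enl-WT and 0 in that of Enl-T1. The distal tubule or loop-like class was cluster 12, in which 14 of 16 distal markers were raised. None of the 10 genes was used to name it, and their regions were left out of the clustering. It held 712 Enl-WT nuclei, 16.6% (15.46 to 17.71%) of the nephron-like nuclei, and 75 Enl-T1 nuclei, 1.73% (1.36 to 2.16%). Its values in Enl-T1 therefore rest on 637348 counts against 9584367 in Enl-WT.

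The sequences at which the distal pattern or the difference between the libraries was most marked are given first, since the values below refer back to them. All are from RefSeq, build GRCm38.p6, and run 5′ to 3′ on the strand of the gene. The first is the Slc12a1 promoter at chr2:125152350-125152649 on the + strand, where a peak was called in Enl-WT alone. The second, at chr2:125162025-125162324, is the centre of the Slc12a1 peak with the largest share of its counts from distal tubule or loop-like nuclei. The third, at chr9:32384938-32385237, is the corresponding peak of Kcnj1, and the fourth, at chr10:50902730-50903029, that of Sim1, both on the + strand. The fifth lies on the − strand at chr7:119477000-119477299, inside Umod, the shared region with the largest difference between the libraries. All 300 of its bases were coding sequence in the annotation, against 0 in the other windows. All letters are in lower case, since none of the motifs searched below lay in these windows.
Slc12a1 promoter: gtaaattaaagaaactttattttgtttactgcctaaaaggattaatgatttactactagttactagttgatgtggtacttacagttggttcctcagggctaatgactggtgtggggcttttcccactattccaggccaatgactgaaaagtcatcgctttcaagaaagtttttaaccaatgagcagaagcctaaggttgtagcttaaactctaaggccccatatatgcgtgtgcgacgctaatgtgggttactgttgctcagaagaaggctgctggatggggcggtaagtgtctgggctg
Slc12a1, 9.7 kb inside the gene: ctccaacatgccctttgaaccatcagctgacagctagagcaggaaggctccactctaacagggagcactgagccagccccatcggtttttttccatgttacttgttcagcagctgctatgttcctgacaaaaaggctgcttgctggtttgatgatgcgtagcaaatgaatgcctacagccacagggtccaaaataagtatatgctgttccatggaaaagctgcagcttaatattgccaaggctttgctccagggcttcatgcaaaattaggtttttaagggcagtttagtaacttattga
Kcnj1, 12.6 kb inside the gene: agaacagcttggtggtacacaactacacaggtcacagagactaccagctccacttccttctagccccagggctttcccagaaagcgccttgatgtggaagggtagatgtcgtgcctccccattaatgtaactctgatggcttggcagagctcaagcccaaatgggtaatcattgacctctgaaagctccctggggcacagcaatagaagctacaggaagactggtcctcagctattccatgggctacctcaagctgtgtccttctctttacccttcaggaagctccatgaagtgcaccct
Sim1, 8.1 kb inside the gene: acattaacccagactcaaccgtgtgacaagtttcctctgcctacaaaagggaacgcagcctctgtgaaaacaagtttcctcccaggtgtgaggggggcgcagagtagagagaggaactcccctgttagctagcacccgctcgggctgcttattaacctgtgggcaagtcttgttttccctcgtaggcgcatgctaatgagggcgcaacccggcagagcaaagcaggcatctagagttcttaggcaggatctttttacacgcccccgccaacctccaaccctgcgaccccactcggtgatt
Umod, 2.1 kb inside the gene: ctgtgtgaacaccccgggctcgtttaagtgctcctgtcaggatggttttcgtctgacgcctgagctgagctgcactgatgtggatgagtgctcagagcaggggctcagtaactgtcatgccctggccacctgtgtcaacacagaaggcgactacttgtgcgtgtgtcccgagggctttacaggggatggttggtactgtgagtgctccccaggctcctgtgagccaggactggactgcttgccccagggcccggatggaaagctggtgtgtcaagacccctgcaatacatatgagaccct

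Motifs were searched on both strands of 300-base windows at the centres of 37 of the Enl-WT peaks of the 10 genes, beside all 159494 Enl-WT peak windows of that length. AAGGTCA, a core bound by orphan nuclear receptors, lay in 1 window (2.7%), at Slc12a1, against 6.7% of all windows and 4.72% of 32851 RefSeq promoters of the same length. The AP-2 palindrome GCCNNNGGC lay in 5 (13.5%), against 17533 of the 159494, 4 of them at Irx1 and Irx2. The POU octamer ATGCAAAT was in 0 windows, against 1.65%. These are matches of letters and not sites shown to be bound.

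In Enl-WT, the strongest peak of each Irx gene lay over its start site. Irx1 (chr13:71957921-71963723) had 3 peaks in Enl-WT, the strongest of them over its transcription start site (TSS) with 1056 counts. That TSS peak was not called in Enl-T1, which had the 2 others. In Enl-WT the TSS peak stood at 20.2 CPM (counts scaled by the total of the class in shared regions) in distal tubule or loop-like nuclei (16.4 to 24.7), 5.37 in nephron progenitor-like nuclei and 17.96 in cluster 7. At Irx2 (chr13:72628820-72634198) the TSS peak held 3519 counts in Enl-WT, with 45.4 CPM in distal tubule or loop-like nuclei against 25.4 in nephron progenitor-like nuclei. It also overlaps Gm20554, and counts there cannot be assigned to either gene. Irx3 (chr8:91798525-91802067) had a single peak, over its TSS and overlapping Irx3os, with 41.0 CPM in distal tubule or loop-like, 15.8 in nephron progenitor-like and 73.9 in endothelial-like nuclei. Thus Irx3 was open most in endothelial-like nuclei, and the Irx genes as a set were not restricted to the distal class.

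Pou3f3, Sim1 and Tfap2b showed a steeper pattern. The TSS peak of Pou3f3 (chr1:42695768-42703176) stood at 58.5 CPM (51.8 to 65.7) in distal tubule or loop-like nuclei of Enl-WT against 4.75 in nephron progenitor-like nuclei, and its upstream peak at 36.6 against 5.75. The region also overlaps Pantr1, and its counts cannot be assigned to either gene. At Sim1 (chr10:50894754-50989152), 5 of 6 Enl-WT peaks were called in both libraries. The TSS peak of Sim1 was open broadly, with 50.5 CPM in distal tubule or loop-like and 15.4 in nephron progenitor-like nuclei. The intronic peak 8.1 kb inside Sim1, printed above, was at 53.0 CPM (46.7 to 59.9) against 2.30. It was open in 207 of 712 distal tubule or loop-like nuclei (29.1%, 25.8 to 32.6%) and in 1.72% of nephron progenitor-like nuclei. The 2 classes of that library had median depths of 15566 and 15826.5 counts. In Enl-T1 this Sim1 peak had 62.8 CPM in distal tubule or loop-like nuclei (38.3 to 96.9) against 3.72, and was open in 20 of 75 of the former (26.7%, 17.1 to 38.1%). Tfap2b (chr1:19208914-19238576) had its TSS peak at 11.999 CPM against 1.92 in Enl-WT, with 31.3% of the counts of that peak from distal tubule or loop-like nuclei.

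Slc12a1 held the peaks most specific to the distal class. Of the 8 Enl-WT peaks over Slc12a1 (chr2:125152505-125230002), 4 were called in Enl-WT alone. The peak over its TSS had 54.3% (43.8 to 63.7%) of its 208 counts in distal tubule or loop-like nuclei, the peak 6.3 kb inside the gene 59.8% (49.9 to 69.2%) of 214, and the peak 9.7 kb inside 65.5% (58.4 to 72.3%) of 385. Distal tubule or loop-like nuclei gave 7.82% of all counts in shared regions of that library. At the last of the 3, distal tubule or loop-like nuclei stood at 26.3 CPM (21.9 to 31.3) and nephron progenitor-like nuclei at 0.57 CPM, with 113 of 712 distal nuclei open (15.9%). The 4 Slc12a1 peaks called in both libraries, all from 3.0 kb inside the gene onward and some over Gm14002 as well, had only 11.04 to 14.1% of their counts from distal tubule or loop-like nuclei. The NKCC2 gene thus had 1 set of peaks shared by many classes and 1 set of peaks open mainly in the distal class. Over all Enl-WT nuclei the peaks of the first set held 341 to 625 counts each, and those of the second 208 to 385. All 3 of the second set were called in Enl-WT alone. The remaining peak called in Enl-WT alone had 17.0% (8.19 to 32.7%) of its 88 counts in distal tubule or loop-like nuclei. Because the Enl-T1 matrix lists counts only in the peaks called in Enl-T1, the signal of Enl-T1 nuclei at these positions was not measured here.

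The other product genes differed from Slc12a1. Kcnj1 (chr9:32372493-32399197) had the same 3 peaks in both libraries, none of them over its annotated TSS. Its peak 12.6 kb inside the gene stood at 26.0 CPM (21.5 to 30.9) in distal tubule or loop-like and 2.41 in nephron progenitor-like nuclei of Enl-WT, and at 9.41 (1.94 to 27.5) against 2.04 in Enl-T1. The Kcnj1 peak 2 kb further on went the other way, with 2.50 CPM in distal tubule or loop-like against 8.70 in nephron progenitor-like nuclei of Enl-WT. Slc12a3 (chr8:94329201-94366214) had no peak over its TSS in either library. The Slc12a3 peak 25.5 kb inside the gene, called in Enl-WT alone, was at 13.1 CPM in distal tubule or loop-like, 13.2 in proximal tubule-like, 11.1 in ureteric epithelium-like and 2.26 in nephron progenitor-like nuclei. The remaining Slc12a3 peaks of Enl-WT stood at 2.50 to 7.51 CPM in distal tubule or loop-like nuclei and 3.83 to 5.44 in nephron progenitor-like nuclei. Umod (chr7:119462711-119479282) had a TSS peak in Enl-WT alone, at 6.99 CPM in distal tubule or loop-like and 6.44 in nephron progenitor-like nuclei, and the coding peak printed above at 15.0 (11.8 to 18.9) and 23.0 (20.5 to 25.8). At Umod the nephron progenitor-like nuclei were therefore as open as the distal tubule or loop-like nuclei, or more so.

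**Figure D1:**
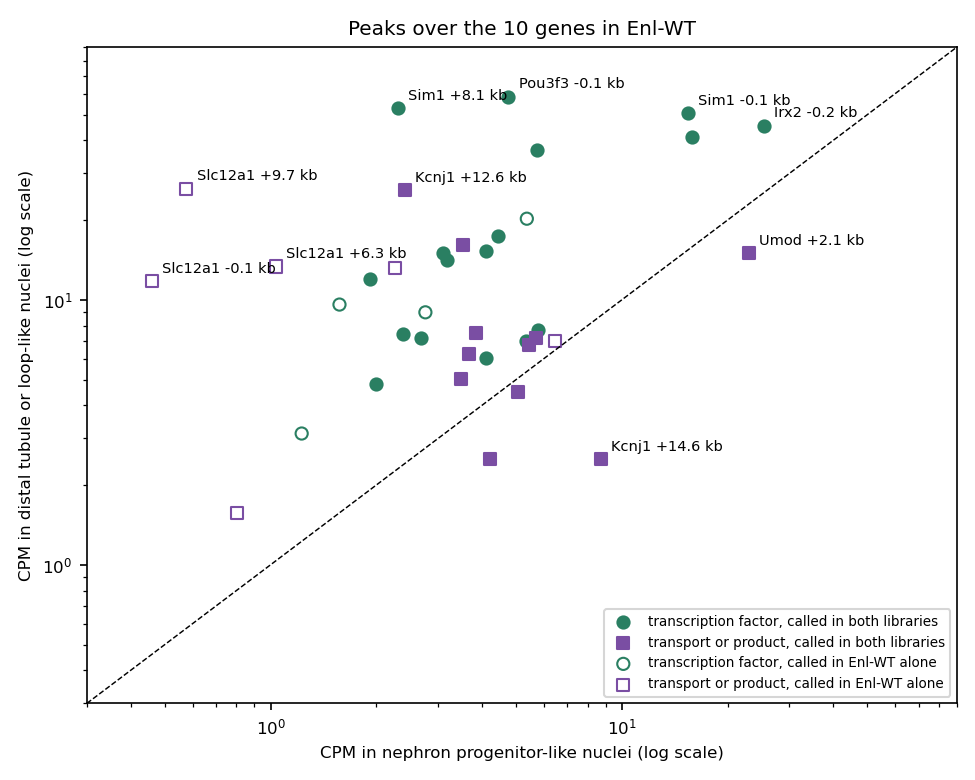
Each point is 1 of the 38 Enl-WT peaks over the 10 genes, by its CPM in nephron progenitor-like nuclei (x axis, log scale) and in distal tubule or loop-like nuclei (y axis, log scale), with filled points called in both libraries, open points called in Enl-WT alone and the dashed line at equal values. The Slc12a1 peak at 0.57 and 26.3 CPM lies farthest above the line, while the Umod peak at 23.0 and 15.0 CPM lies below it.

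Over all 38 Enl-WT peaks of the 10 genes, 24 had their highest CPM in the distal tubule or loop-like class, 4 in cluster 7, 3 in nephron progenitor-like and 3 in immune-like nuclei, 2 in proximal tubule-like and 1 each in endothelial-like and podocyte-like nuclei. The same count over all Enl-WT peaks was not made, so these numbers have no background beside them. Of the 38, 23 were past 2-fold higher in distal tubule or loop-like than in nephron progenitor-like nuclei, where 17.4% of all Enl-WT peaks were, and 13 were past 4-fold, where 7.04% of all were. In Enl-T1, 18 of 31 were past 2-fold (21.5% of all peaks) and 10 past 4-fold (7.02%). The 10 peaks called in Enl-WT alone were 26.3% of the Enl-WT peaks of these genes, against 47872 of all 159560 Enl-WT peaks (30.0025%), and the 3 called in Enl-T1 alone (at Slc12a1 and Slc12a3) were 9.68% against 13.4% of all Enl-T1 peaks. The number of peaks missing in Enl-T1 was thus no larger over these genes than over the genome. The share of counts from distal tubule or loop-like nuclei had a median of 19.9% over the 10 Enl-WT peaks not called in Enl-T1 and 14.7% over the 28 called in both, and the peaks not called in Enl-T1 were also weaker, with a median of 323 counts against 648.

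At the level of the gene, with shared regions alone, 5 of the 10 genes were past 2-fold higher in distal tubule or loop-like than in nephron progenitor-like nuclei of Enl-WT, where 3.8% of all genes were. Pou3f3 stood at 95.2 CPM against 10.5, a log2 ratio of 3.18 (2.90 to 3.47). The log2 ratio was 2.31 for Sim1, 1.77 for Tfap2b, 1.61 for Kcnj1 and 1.37 for Irx3. Irx1 (0.89), Irx2 (0.80), Slc12a1 (0.36, 0.02 to 0.69) and Slc12a3 (0.32, −0.09 to 0.70) were less different, and Umod was lower (−0.61, −1.01 to −0.24). The median over the 10 genes was 1.13, beside 0.10 over all genes. For Slc12a1 this value leaves out the peaks called in Enl-WT alone, the distal-specific ones among them. With all the peaks called in Enl-WT alone its level in distal tubule or loop-like nuclei was 75.96 CPM rather than 22.95. The Irx1 value likewise leaves out its TSS peak, at 20.2 CPM in distal tubule or loop-like and 5.37 in nephron progenitor-like nuclei. Against stroma-like nuclei, 7 of the 10 genes were past 2-fold in Enl-WT (9.06% of all genes) and 6 in Enl-T1, where 9 had enough counts (10.6%). Against ureteric epithelium-like nuclei the number was 2 in Enl-WT, Umod (log2 ratio 3.90) and Kcnj1 (1.53), where 3.04% of all genes were, and 2 of the 8 with enough counts in Enl-T1, Kcnj1 (1.65) and Slc12a1 (1.02), where 3.32% were. In Enl-T1, Pou3f3, Sim1, Tfap2b and Kcnj1 were past 2-fold over nephron progenitor-like nuclei (5.46% of all genes). The distal pattern of these 4 genes was thus present in the few distal tubule or loop-like nuclei of Enl-T1 also. The nuclei were not grouped by these genes, but a cluster against other nuclei of the same library remains a description.

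Per length of shared peak, Pou3f3 was most open of the 10 genes in distal tubule or loop-like nuclei of Enl-WT (44.6 CPM per kb). It was followed by Sim1 at 33.9, Irx3 at 28.6, Irx2 at 21.9, Umod at 17.3 and Kcnj1 at 15.96, and Slc12a1 was lowest at 4.38. These values leave out the Slc12a1 peaks called in Enl-WT alone, such as that 9.7 kb inside the gene, with 26.3 CPM in 880 bp. In that class Sim1 was open in 423 of 712 nuclei (59.4%) and Pou3f3 in 45.6%, against 18.3% and 6.61% of nephron progenitor-like nuclei. With each nucleus thinned to 5000 counts the shares were 28.1% and 18.4%, against 6.95% and 2.46%, so the order of the classes held at equal depth.

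Cluster 7, with 574 Enl-WT and 747 Enl-T1 nuclei, was the nearest to the distal class. It was left unnamed because ureteric markers gave it the highest score (1.12) while the distal marker Cldn19 led it together with Cldn8 and Kif12, and its score for the distal list was 0.92. Tfap2b stood at 53.0 CPM in distal tubule or loop-like nuclei and 49.8 in cluster 7 of Enl-WT, Pou3f3 at 95.2 and 90.1, and Kcnj1 at 44.6 and 45.0, with overlapping intervals in each case. Sim1, at 143.5 CPM in the distal class, was above cluster 7 (113.9) beyond the counting intervals. Umod separated the 2 groups of nuclei most, with 3 counts or 0.38 CPM (0.06 to 1.85) in cluster 7 of Enl-WT. Of the 10 genes, 2 (Umod and Slc12a1) were past 2-fold higher in the distal class than in cluster 7 (0.927% of all genes), and 0 of the 8 with enough counts were in Enl-T1 (2.15%). Umod and Slc12a1 had too few counts in Enl-T1 to be among those 8, and their log2 ratios of the distal class to cluster 7 there were 3.07 (−0.39 to 7.18) and 1.81 (0.45 to 3.01), in the direction of Enl-WT.

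**Figure D2:**
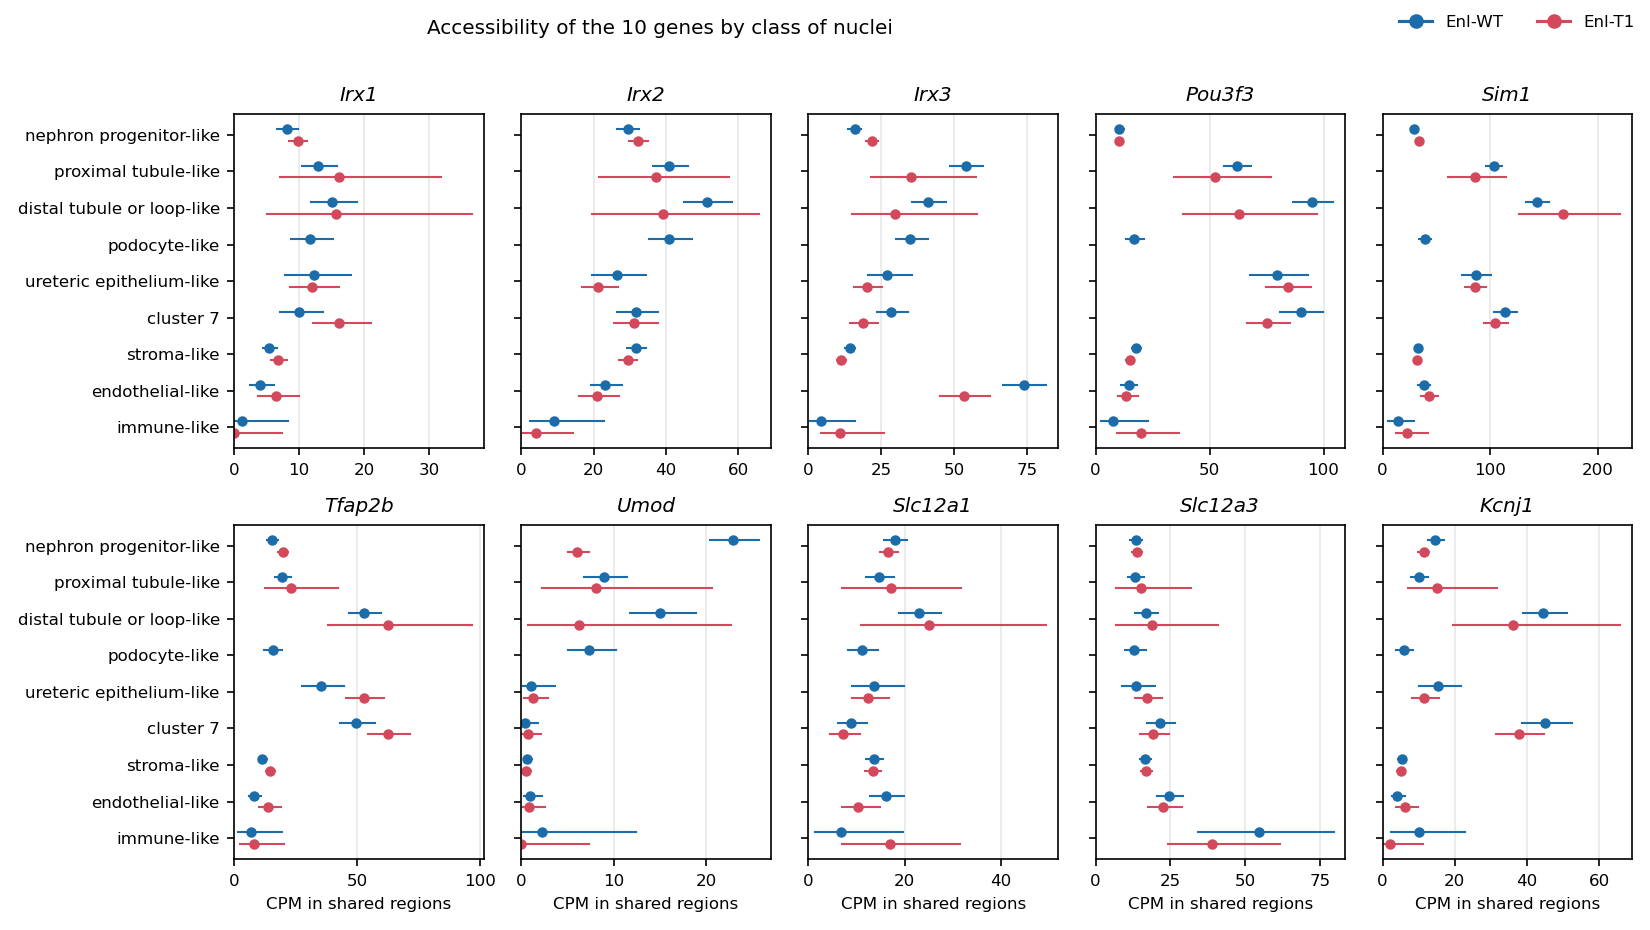
Each panel is 1 gene, with its CPM in shared regions (x axis, from 0) in each class of nuclei (y axis) for Enl-WT and Enl-T1, points for the value and bars for the exact 95% counting interval. Pou3f3, Sim1, Tfap2b and Kcnj1 are high in distal tubule or loop-like nuclei and cluster 7, Irx3 is highest in endothelial-like nuclei (73.9 CPM in Enl-WT), and Umod is highest in nephron progenitor-like nuclei of Enl-WT (23.0 CPM).

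Not all 10 genes were highest in the distal class. In Enl-WT, Irx3 ran from 73.9 CPM in endothelial-like (77.97 in cluster 5, the larger endothelial cluster) through 53.95 in proximal tubule-like to 41.0 in distal tubule or loop-like nuclei, and these did not overlap in their counting intervals. Slc12a3 was highest in the 100 immune-like nuclei, at 54.7 CPM (34.3 to 79.7), then 24.5 in endothelial-like and 21.4 in cluster 7, with 16.8 in distal tubule or loop-like nuclei. In shared regions, Irx1 was at 15.1 CPM in distal tubule or loop-like nuclei and 12.9 in proximal tubule-like nuclei. Irx2 was at 51.4 and 40.9, with overlapping neighbours in both orders. The Irx1 values leave out its TSS peak called in Enl-WT alone, at 20.2 and 12.7 CPM in these 2 classes. Slc12a1 was at 22.95 CPM (18.9 to 27.7) in distal tubule or loop-like and 17.9 (15.7 to 20.4) in nephron progenitor-like nuclei. These Slc12a1 values leave out its distal-specific peaks called in Enl-WT alone.

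Enl-T1 was next compared with Enl-WT over all kept nuclei, which mixes the makeup of the kidney with the state of its cells: fewer nuclei of a class and less accessibility per nucleus cannot be told apart in these sums. Umod stood lowest in Enl-T1, at 2.84 CPM against 8.18 in Enl-WT, a log2 ratio of −1.53 (−1.80 to −1.25). Irx3 was at 19.4 against 29.3 CPM (log2 ratio −0.60, −0.71 to −0.49). These 2 genes were past 1.5-fold lower, where 0.886% of all 16825 genes were, and 0 of the 10 were past 1.5-fold higher, where 0.981% were. Pou3f3 was at 23.0 against 33.9 CPM (−0.56, −0.66 to −0.46), Kcnj1 at 10.6 against 14.0 (−0.41, −0.56 to −0.25) and Sim1 at 43.5 against 57.3 (−0.40, −0.47 to −0.32). Irx2 (33.3 to 29.5 CPM), Irx1 (8.57 to 9.14), Tfap2b (20.1 to 22.8), Slc12a1 (14.9 to 14.1) and Slc12a3 (16.3 to 16.2) were within 0.19 of 0 on the log2 scale. The median of the 10 genes was −0.29, beside −0.03 over all genes.

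The width of the called peaks differed between the libraries and moved with several of these values. The Irx3 peak spanned 1433 bp in Enl-WT but 929 bp in Enl-T1, and per base of peak its log2 ratio was 0.03. Per base, Pou3f3 was at −0.25, Sim1 at −0.27, Kcnj1 at −0.31 and Slc12a1 at 0.46, while Umod, with peaks of 870 and 880 bp, stayed at −1.54, and the median of the 10 genes was 0.005 beside 0.10 over all genes. Counting also the peaks called in 1 library, the log2 ratio was −0.91 for Irx1, −0.46 for Slc12a1 and −1.95 for Umod. Peaks called in Enl-WT alone lower these values by construction, since Enl-T1 counts at those peaks are missing from them. Umod, Pou3f3, Sim1 and Kcnj1 were hence lower in Enl-T1 with and without regard to peak width, and Irx3 was not.

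**Figure D3:**
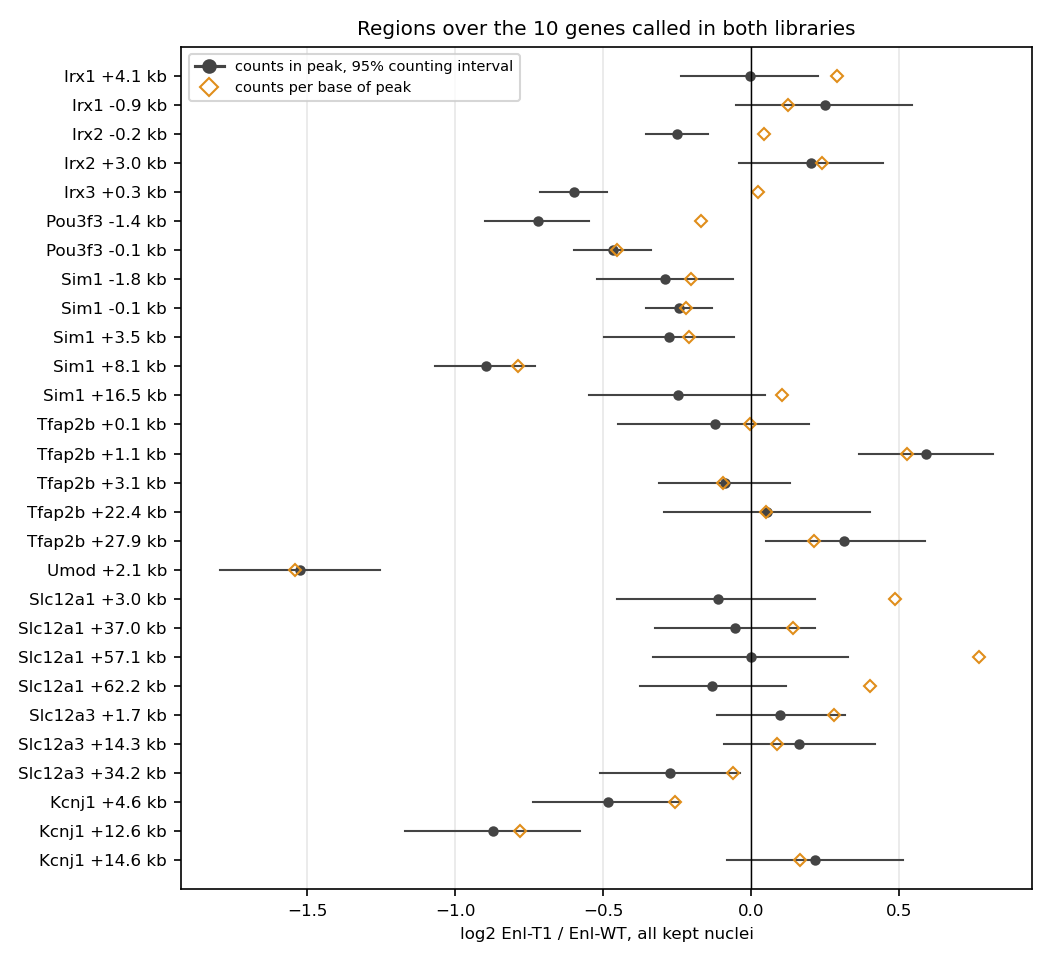
The 28 regions over the 10 genes called in both libraries, named by gene and distance from the TSS in kb (y axis), with the log2 ratio of Enl-T1 to Enl-WT over all kept nuclei (x axis), circles with exact 95% counting intervals for counts in the peak and open diamonds for counts per base of peak. The Umod region at −1.53 stands apart, and the intronic Sim1 region 8.1 kb inside the gene (−0.90) and the Kcnj1 region 12.6 kb inside (−0.87) come next.

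Among the 28 shared regions, 1 (Umod) was past 2-fold lower in Enl-T1, where 0.981% of all shared regions were, and 0 were past 2-fold higher (2.52%). The next were the 2 regions printed above for Sim1 (14.8 to 7.93 CPM, log2 ratio −0.90, −1.07 to −0.73) and Kcnj1 (4.97 to 2.72 CPM, −0.87, −1.17 to −0.58), which kept this direction per base (−0.79 and −0.78). Distal tubule or loop-like nuclei held 28.1% and 40.9% of the Enl-WT counts of these 2 regions. The most raised was a Tfap2b region 1.1 kb inside the gene, at 7.09 against 4.70 CPM (0.59, 0.37 to 0.82).

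The makeup of the libraries was set beside these values. With the Enl-WT level of each class weighted by the share of counts of that class in Enl-T1, Sim1 came to 45.3 CPM, close to its 43.5 in Enl-T1, and Irx3 to 21.1 against 19.4. Pou3f3 came to 27.2 CPM against 23.0 in Enl-T1. For Umod the weighted level was 9.30 CPM, above that of Enl-WT, against 2.84 in Enl-T1. The weighting had little effect on Kcnj1, at 13.8 CPM against 10.6 in Enl-T1.

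Umod differed within the nephron progenitor-like class itself. Its level was 22.96 CPM (20.5 to 25.8, 599 counts) in 1862 Enl-WT nuclei and 6.08 CPM (5.02 to 7.29, 232 counts) in 4081 Enl-T1 nuclei, a log2 ratio of −1.92 (−2.24 to −1.61). At 5000 counts per nucleus, 5.53% of Enl-WT nuclei and 1.13% of Enl-T1 nuclei of the class had a count in the region. It was the 1 gene of the 10 past 1.5-fold lower in this class (2.37% of all genes), and 0 were past 1.5-fold higher (1.85%). Different clusters held the class in the 2 libraries: cluster 2 had 1861 of the Enl-WT nuclei, and clusters 0 and 4 had 2519 and 1453 of those of Enl-T1. Umod led the genes of cluster 2 by fold over the other clusters. Over the class, the 10 nephron progenitor markers summed to 519.5 CPM in Enl-WT against 403.5 for Enl-T1, in which the sum was 360.8 in cluster 0, 462.5 in cluster 4 and 565.3 in cluster 2. By cluster, Umod was at 23.0 CPM in cluster 2 of Enl-WT, and in Enl-T1 at 3.97 in cluster 0, 8.69 in cluster 4 and 18.4 (8.40 to 34.9) in the 109 nuclei of cluster 2, 3 of which carried a barcode also found in Enl-WT. Within cluster 2 the log2 ratio of Umod was −0.32 (−1.47 to 0.62), an interval that includes 0, and the lower level of Enl-T1 lay with clusters 0 and 4, which held 1 and 0 nuclei of Enl-WT. A difference of the library and a difference between clusters therefore cannot be told apart for Umod in this class.

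**Figure D4:**
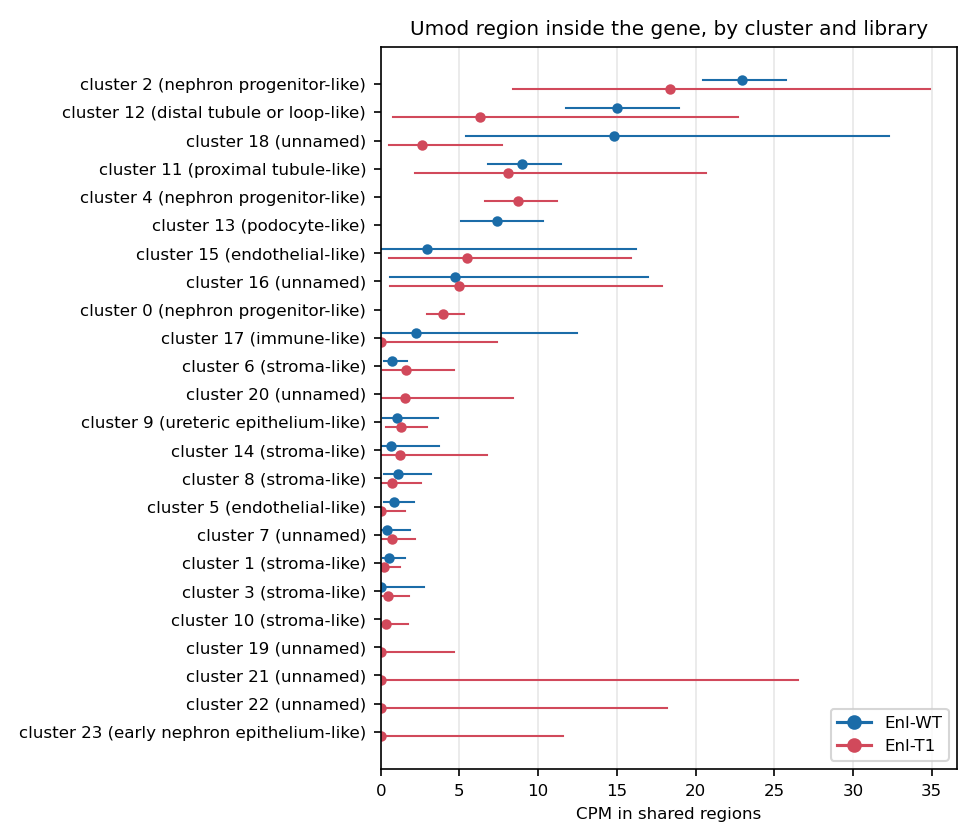
CPM of the Umod region inside the gene (x axis, from 0) by cluster (y axis) for Enl-WT and Enl-T1, points for the value and bars for the exact 95% counting interval. In cluster 2 the libraries overlap (23.0 and 18.4 CPM), while clusters 0 and 4, nearly all Enl-T1, stand at 3.97 and 8.69 CPM.

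The remaining 9 genes differed less in nephron progenitor-like nuclei. Irx3 was at 15.8 CPM in Enl-WT against 21.8 in Enl-T1 (log2 ratio 0.46, 0.22 to 0.71, and 1.09 per base), Tfap2b at 15.52 and 19.9 (0.36, 0.11 to 0.62) and Sim1 at 28.9 and 33.7 (0.22, 0.03 to 0.41). With the nuclei clustered on components 2 to 15 of the reduced data, Irx3 fell to 0.13 and Sim1 turned to −0.0090. Within cluster 2 alone Irx3 was at −0.79 (−2.84 to 0.43). Kcnj1 was at 14.6 and 11.3 CPM (−0.37, −0.66 to −0.08). Irx1 (0.26), Irx2 (0.13), Pou3f3 (−0.05), Slc12a1 (−0.11) and Slc12a3 (0.03) had intervals that included 0. Per base of peak, Irx1 (0.40, 0.05 to 0.76), Irx2 (0.30, 0.11 to 0.48) and Slc12a1 (0.42, 0.18 to 0.67) were higher in Enl-T1 beyond counting error. With peaks called in 1 library counted in, Irx1 (−0.47, −0.77 to −0.16) and Slc12a1 (−0.26, −0.50 to −0.03) were lower, so these genes had no direction that held over the ways of counting. Peaks called in Enl-WT alone lower the latter values by construction, since Enl-T1 counts at those peaks are missing from them. The transcription factor genes had a median of 0.24 and the product genes of −0.24, with 0.01 over all genes. Summed distal markers in this class were also higher in Enl-T1 (866.0 CPM) than in Enl-WT (723.8). Most of that rise lay in 1 marker, Mecom, at 367.7 CPM in Enl-T1 against 252.7 in Enl-WT. Of the 16 markers, 10 were higher in Enl-T1 and 6 lower. Whether the marker levels had a part in the values of Irx3, Tfap2b and Sim1 was not tested.

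**Figure D5:**
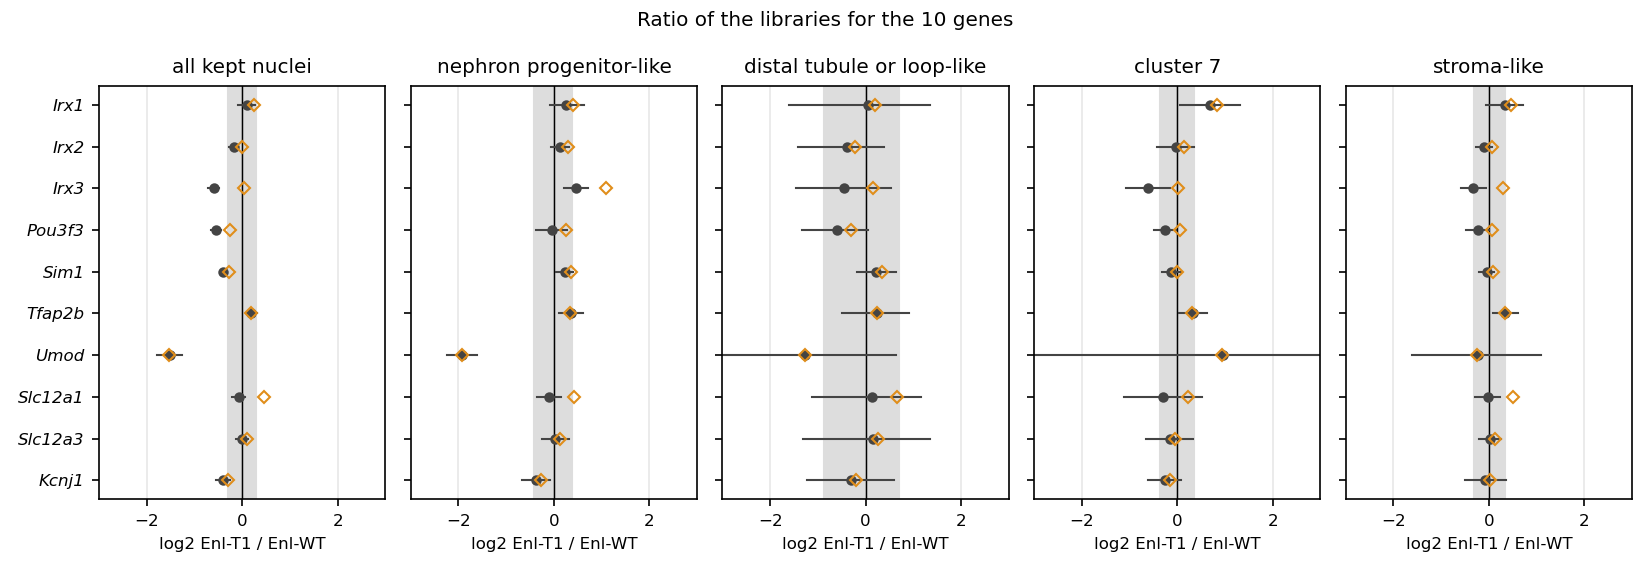
Log2 ratio of Enl-T1 to Enl-WT (x axis, 0 at equal levels) for each of the 10 genes (y axis) over all kept nuclei and within classes, with exact 95% counting intervals. Umod lies lowest over all nuclei (−1.53) and in nephron progenitor-like nuclei (−1.92), and all 10 intervals include 0 in distal tubule or loop-like nuclei, with counts in shared regions.

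In the distal tubule or loop-like nuclei, all 10 intervals of the ratio of Enl-T1 to Enl-WT included 0 in shared regions. Sim1 had the most counts in the 75 Enl-T1 nuclei, 107, and stood at 167.9 CPM against 143.5 in Enl-WT (log2 ratio 0.23, −0.19 to 0.64). Pou3f3 was at 62.8 CPM against 95.2 (−0.60, −1.33 to 0.04) and Tfap2b at 62.8 against 53.0 (0.24, −0.49 to 0.90). Kcnj1 was at 36.1 against 44.6 CPM (−0.30, −1.22 to 0.59) and Slc12a1, in its shared regions, at 25.1 against 22.95 (0.13, −1.12 to 1.16). With the peaks called in 1 library counted in, Slc12a1 turned to −1.43 (−2.57 to −0.49), the 1 interval of the 10 that then left out 0, and the Enl-T1 counts at the peaks called in Enl-WT alone are not in that value. Umod had 4 counts, or 6.28 CPM (0.76 to 22.7), against 15.0 (−1.26, −4.33 to 0.65). With 0.5 added to the counts, Umod was the 1 gene past 1.5-fold lower, where 11.8% of all genes were, with Pou3f3 at the limit, and 0 were past 1.5-fold higher (7.96%). The median of the 10 genes was −0.13 beside −0.02 over all genes. The intervals of Sim1 and Tfap2b left out a 2-fold difference in either direction, while those of Irx1, Slc12a1 and Slc12a3 held 2-fold in both directions, so a difference of that size was not detectable for these 3 genes at this depth. The summed distal markers of this class came to 1436 CPM in Enl-WT against 1254 in Enl-T1, and 12 of the 16 were lower in Enl-T1 and 4 higher. They ran from the loop marker Tmem52b, at 68.4 and 17.3 CPM, to Lgr5, at 95.1 and 127.1. The markers of stroma in this class summed to 185.4 CPM in Enl-WT against 255.7 for Enl-T1, with 6 of 10 higher, and those of podocytes to 422.5 and 514.6, with 6 of 8 higher. The part of these markers in the ratios was not tested.

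Outside the named nephron classes, Irx3 was lower in Enl-T1 in cluster 7 (28.5 to 18.8 CPM, log2 ratio −0.60, −1.07 to −0.14, and 0.02 per base), where 1 gene was past 1.5-fold lower (1.08% of all genes). In its shared regions Irx1 was higher in the same cluster (10.0 to 16.1 CPM, 0.69, 0.06 to 1.32), the 1 gene past 1.5-fold higher with at least 100 counts there (1.17%). With the TSS peak called in Enl-WT alone counted in, the direction of Irx1 turned (−0.80, −1.30 to −0.31). Enl-T1 counts at that peak are missing from this value, so adding the peak could only lower it. In stroma-like nuclei 0 of the 9 genes compared were past 1.5-fold in either direction (0.895% lower and 1.27% higher over all genes). Tfap2b was at 14.6 CPM in Enl-T1 against 11.5 in Enl-WT there (0.34, 0.08 to 0.61). In ureteric epithelium-like nuclei, 0 of 9 genes were past 1.5-fold (1.58% lower and 2.89% higher). Tfap2b lay just under that limit, at 52.9 CPM in Enl-T1 against 35.3 in Enl-WT (0.58, 0.18 to 1.00, and 0.57 per base). In cluster 7, Tfap2b was at 62.7 CPM in Enl-T1 against 49.8 in Enl-WT (0.33, 0.04 to 0.62). Pou3f3 was lower there, at 75.4 against 90.1 CPM (−0.26, −0.50 to −0.02). In endothelial-like nuclei Irx3 was at 73.9 CPM in Enl-WT against 53.3 in Enl-T1 (−0.47, −0.75 to −0.20, and 0.15 per base). Of the 7 genes compared there, Slc12a1 was past 1.5-fold lower (16.1 to 10.3 CPM, −0.65, −1.27 to 0.0029, with 1.2% of all genes), but not per base of peak (−0.11, −0.73 to 0.54). Tfap2b was past 1.5-fold higher (8.18 to 13.7 CPM, 0.75, 0.11 to 1.42, with 3.19%) and stood at 0.73 per base. In proximal tubule-like nuclei, of which Enl-T1 had 109, Irx3 was past 1.5-fold lower (53.95 to 35.3 CPM, −0.61, −1.34 to 0.11) and Kcnj1 higher (9.99 to 15.1 CPM, 0.60, −0.58 to 1.74), with intervals that include 0 and 10.6% and 6.76% of all genes past these limits.

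Other genes of the distal nephron that were not among the distal markers were compared next. Lhx1 and Dll1 among them were markers of early nephron epithelium, another class scored in the naming. Of 28 such genes over all kept nuclei, 1 was past 1.5-fold lower in Enl-T1 (0.886% of all genes), Lhx1, a LIM homeodomain factor of the renal vesicle (19.6 to 12.4 CPM, log2 ratio −0.66), and 0 were higher (0.981%). In nephron progenitor-like nuclei, Emx2, a homeodomain factor of the ureteric bud and tubule, was higher (12.9 to 23.9 CPM, 0.89, 0.63 to 1.16, with 1.85% of all genes past this limit), and 0 were past 1.5-fold lower (2.37%). In distal tubule or loop-like nuclei 6 of the 27 compared were lower, where 11.8% of all genes were, and 0 higher, where 7.96% were. Among the lower were Fxyd2, the gamma subunit of the sodium pump (34.6 to 7.85 CPM, −2.14), Trpm6, a magnesium channel (42.3 to 18.8, −1.17), Kcnj16, a potassium channel partner (47.99 to 25.1, −0.93), and Mal, a protein of apical membrane sorting (83.1 to 43.9, −0.92). In Enl-T1 these values rest on 5 counts for Fxyd2, 12 for Trpm6, 16 for Kcnj16 and 28 for Mal. The intervals were wide, from −5.52 to −0.59 for Fxyd2 and from −2.63 to −0.02 for Trpm6, and that of Kcnj16 included 0. Also lower in this class were Kcnj10 (122.9 to 72.2 CPM, −0.77, −1.44 to −0.17) and Emx2 (89.1 to 53.3 CPM, −0.74, −1.53 to −0.04). Emx2 thus went in opposite directions in the progenitor and distal classes. The median of the listed genes compared in this class was −0.10 beside −0.02 over all genes.

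The 18 paralogues of the 10 genes were compared in the same way. Over all nuclei, 1 was past 1.5-fold lower (0.886% of all genes), Kcnj15, an inwardly rectifying potassium channel (19.6 to 12.2 CPM, log2 ratio −0.69), and 0 were higher (0.981%). The AP-2 gene Tfap2e was the 1 past this limit in nephron progenitor-like nuclei, where it was higher (3.49 to 6.10 CPM, 0.81, 0.28 to 1.31, with 1.85% of all genes), so neither the Iroquois nor the POU3 paralogues passed 1.5-fold in this class. Of the 16 compared in distal tubule or loop-like nuclei, 1 was past 1.5-fold higher (7.96% of all genes), Irx4 (24.0 to 37.7 CPM, 0.65, −0.34 to 1.51). The 2 past 1.5-fold lower (11.8%) were Kcnj16, which also belongs to the list above (−0.93, −2.16 to 0.07), and Pou3f1 (30.4 to 18.8 CPM, −0.69, −2.16 to 0.46). All 3 intervals include 0.

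Across the 16 clusters of Enl-WT with at least 50 nuclei, the genes whose log2(CPM + 1) was most like the mean of the 6 transcription factor genes, among 15186 genes, were Phyhipl (Pearson r 0.957), Emx1 (0.945), Lama1 (0.944), Elf3 (0.932) and Lgals12 (0.931). Emx1 was among the 16 markers that named the distal class. Of the 6 genes themselves, Sim1 (0.957) and Pou3f3 (0.905) were nearest to their mean and Irx2 (0.745) the farthest. The 4 product genes ranged more widely, with r to their mean of 0.767 for Umod, 0.665 for Kcnj1, 0.217 for Slc12a1 and 0.066 for Slc12a3. The genes most similar to that mean were Gm572 (0.816), Casr (0.812), the calcium-sensing receptor of the thick ascending limb, Tspoap1 (0.809), Utrn (0.805) and 1700024G13Rik (0.805). These clusters share a library and differ in depth, and the values describe likeness of accessibility alone.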

How the data were processed

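Nuclei of embryonic kidneys were profiled by snATAC-seq in 2 libraries. Per the study's methods, the authors aligned reads to mm10 with Cell Ranger ATAC 2.1.0 and called peaks in each library separately. The deposited counts per peak and barcode are whole numbers with no normalisation, and 91.1% (Enl-WT) and 88.0% (Enl-T1) of the listed values were even, so 2 counts were taken as 1 fragment for the exact Poisson and binomial 95% intervals, which cover counting error alone. The study also filtered on signal at start sites, blacklisted regions and the share of fragments in peaks, which was not done here, and doublets were not removed, since the study states no removal. The study kept nearly equal numbers of nuclei in the 2 libraries, fewer than here in both. Most of the additional nuclei kept here were of Enl-T1, and their part in the values was not tested.

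Barcodes with 2000 to 100000 counts were kept. Peaks were joined between libraries by an overlap of at least 1 bp (bedtools 2.31.1) and assigned to genes over the gene body and 2 kb upstream (GENCODE M21). CPM is scaled to counts in shared regions, which held 122531494 counts of Enl-WT nuclei and 103863390 of Enl-T1 nuclei. Nuclei were clustered on their shared regions by latent semantic indexing (components 2 to 30, 15 neighbours, Leiden resolution 1, leidenalg 0.10.2), with the regions of the 10 genes left out. A class was named where its markers had a mean log2 ratio to the median cluster of at least 0.4, at least 3 were raised, and the lead over other lineages was at least 0.1, and a cluster led by a marker of another class was left unnamed. This rule had been set in an earlier look at these data. The members, marker lists and gene lists were likewise chosen with earlier results of these data known.

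Ratios of the libraries were taken for genes with at least 100 counts and regions with at least 50, both libraries together, and a gene past 1.5-fold or a region past 2-fold was counted without a test. All 10 genes, their strongest or most different regions, up to 4 past 1.5-fold from each list, and the 5 genes most like each profile were named. The counting was tested on simulated data with known ratios. The alternatives were other scalings, including edgeR 4.0.16 TMM factors, filters, region sets, clusterings and thinning to 5000 counts. A result for 1 listed gene is not reported here.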

Additional observations from a re-analysis of the deposited data

Results flagged for a closer look

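Irx3 was the gene of the 10 whose ratio of Enl-T1 to Enl-WT took opposite directions in classes of nuclei with counting intervals that left out 0. It was higher in Enl-T1 in nephron progenitor-like nuclei (log2 ratio 0.46, 0.22 to 0.71, but 0.13 with components 2 to 15 and −0.79 within cluster 2) and lower in cluster 7 (−0.60, −1.07 to −0.14), in stroma-like nuclei (−0.33, −0.59 to −0.05) and in endothelial-like nuclei (−0.47). The difference between the classes was not tested, since each group had 1 library. Per base of peak the values were 1.09 in nephron progenitor-like nuclei, 0.02 in cluster 7, 0.30 in stroma-like and 0.15 in endothelial-like nuclei. Irx3 had a single peak, so this scale raises every class by the same amount. It moves the values above 0 but leaves the differences between the classes unchanged.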

How the results depend on the processing

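No paired analysis was possible because the labels carry no replicate numbers and each group had 1 library, so no library could be left out either. Over all kept nuclei, the median log2 ratio of the 10 genes (−0.29) moved to −0.445 when peaks called in 1 library were added and turned to 0.0053 per base of peak (0.10 over all genes). In nephron progenitor-like nuclei the median (0.08) moved to 0.32 per base (0.14 over all genes) and to 0.38 within cluster 2. These alternatives, and the comparison of clusters 0, 4 and 2 of Enl-T1 with cluster 2 of Enl-WT, in which Umod was at −2.53, −1.40 and −0.32 (−1.47 to 0.62), were chosen after seeing the data. Of single genes, Irx3 turned to 0.025 over all nuclei and 0.30 in stroma-like nuclei per base, and Sim1 in nephron progenitor-like nuclei turned to −0.0090 with components 2 to 15, where Irx3 was at 0.13. Within cluster 2, Irx3 turned to −0.79 and Kcnj1 to 0.16, with 109 nuclei in Enl-T1 and intervals that include 0. For Irx3 per base the difference in called width enters by construction, and for Sim1 and within cluster 2 the cause was not tested. The share of distal tubule or loop-like nuclei was 14.6% (Enl-WT) and 1.24% (Enl-T1) at resolution 2 and 20.6% in Enl-WT with likely doublets removed. Within 2 kb of the TSS the genes had 15 peaks in Enl-WT and 11 in Enl-T1. Over all nuclei Umod ranged from −1.95 to −1.43 and in nephron progenitor-like nuclei from −2.53 to −0.32, with the interval of the last including 0. Of 623 values recomputed for single genes, 572 lay within the counting interval of the value reported, and 83 changed sign. For 5 of these, those above, the interval reported left out 0. For the other 78 it included 0, and 8 of them then had an interval on the other side of 0: Irx1 with peaks of 1 library (−0.91 over all nuclei, −0.84 in stroma-like and −0.47 in nephron progenitor-like nuclei), Slc12a1 with those peaks in distal tubule or loop-like nuclei (−1.43), and Slc12a1 per base over all nuclei (0.46), in stroma-like nuclei (0.51) and in nephron progenitor-like nuclei (0.42), and within cluster 2 (0.86). Not among the 5 were changes of sign in cluster 7 and endothelial-like nuclei, also from intervals that left out 0. With peaks of 1 library, Irx1 in cluster 7 turned from 0.69 to −0.80. All values with peaks of 1 library lack the counts of a library at peaks not called in it. Peaks called in Enl-WT alone therefore lower such values by construction. Per base, Irx3 turned from −0.60 to 0.02 in cluster 7 and from −0.47 to 0.15 in endothelial-like nuclei. Pou3f3 in cluster 7 turned from −0.26 to 0.05 per base. Enl-T1 had the lower depth per nucleus, and its 75 distal tubule or loop-like nuclei limit what can be seen there.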
